A study of Mus musculus with 15 samples.

Results

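The 10 genes described here mark radial glia, the neural stem cells of the foetal cortex, or carry the Notch signal that keeps those cells dividing: the ligand gene Dll1, the receptor gene Notch1, the target genes Hes1 and Hes5, the transcription factor genes Sox2 and Pax6, and the marker genes Fabp7, Slc1a3, Hopx and Tnc. They were taken by name from the mouse count table and make up 10 of the 23132 genes kept. All 10 passed the low-count filter in every comparison.

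The libraries are polyA RNA-seq of male C57BL/6 mouse foetuses. The cortex groups are dissected E15.5 cortex, used directly, from 3 Phf6+/Y controls and 5 Phf6-/Y foetuses that lack Phf6 in all cells because a general deleter Cre removed the floxed part of the gene in the germline. The neuron groups are E16.5 cortical cells, dissociated, plated and cultured for a day in a medium that favours neurons, from 3 Phf6+/Y;Nes-creTg/+ controls and 4 Phf6lox/Y;Nes-creTg/+ foetuses. All neuron samples, controls included, carry the Nes-cre transgene, which the Nestin promoter drives in the neural tube, so the deletion there is limited to the nervous system. Cortices came from litters 1 to 3 and neurons from litters 4 to 7, with litter 7 holding 1 Phf6lox/Y;Nes-creTg/+ culture and no control. The labels give a replicate and a litter number but no animal number, so p-values measure the spread between these samples.

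Radial glia line the ventricle of the developing cortex and give rise to neurons, either directly or through intermediate progenitors, and later to astrocytes. A cell that starts to become a neuron displays the ligand DLL1, which activates NOTCH1 on its neighbour. The cleaved receptor then joins the DNA-binding protein RBPJ and switches on Hes1 and Hes5, whose products repress the genes of neuronal differentiation, so that the neighbour stays a progenitor. SOX2 and PAX6 maintain the progenitor state, FABP7 and SLC1A3 are a fatty acid-binding protein and a glutamate transporter of radial glia, and HOPX and the matrix protein tenascin C (Tnc) mark the outer radial glia of larger brains and also occur in ventricular radial glia and astrocytes of the mouse.

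The RBPJ core motif, TGGGAA or TTCCCA on the other strand, was looked for in the 250 bases before each start site, since 8 of the 10 genes were lower together in the cultured neurons. RefSeq promoter windows (GRCm38.p6) were matched for 9 of the 10 genes, not for Hes1, and comprised 13 windows. The RBPJ core was found in 3 of the 9 genes, Hes5, Fabp7 and Tnc, against 24.1% of the 27025 genes with a window. Hes5 had 2 matches in 1 window, at bases 25 to 30 and 169 to 174, and Tnc had 1 in each of 2 overlapping windows. The sequences of these 3 are shown because they hold the letters of the pathway's own DNA-binding protein, 5′ to 3′ on the gene's strand, with the RBPJ core in capitals and without bases inside the gene model. They lie at chr4:154960673-154960922 on the plus strand (Hes5), chr10:57784673-57784880 on the plus strand (Fabp7) and chr4:64047016-64047265 on the minus strand (Tnc, the first window).
Hes5: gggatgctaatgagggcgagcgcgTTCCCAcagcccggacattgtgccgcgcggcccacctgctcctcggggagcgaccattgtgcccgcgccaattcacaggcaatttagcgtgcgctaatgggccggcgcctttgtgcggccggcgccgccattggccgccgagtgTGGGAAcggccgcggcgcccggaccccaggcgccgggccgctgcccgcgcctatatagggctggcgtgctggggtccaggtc
Fabp7: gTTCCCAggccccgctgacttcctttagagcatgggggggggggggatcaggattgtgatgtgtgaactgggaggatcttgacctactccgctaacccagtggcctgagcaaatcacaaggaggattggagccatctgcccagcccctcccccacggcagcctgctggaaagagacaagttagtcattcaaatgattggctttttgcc
Tnc: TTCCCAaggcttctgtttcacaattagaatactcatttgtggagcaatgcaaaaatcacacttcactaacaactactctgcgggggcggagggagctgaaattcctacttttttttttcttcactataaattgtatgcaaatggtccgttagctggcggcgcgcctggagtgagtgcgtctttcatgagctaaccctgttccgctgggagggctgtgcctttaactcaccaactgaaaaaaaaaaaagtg

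The matches end 220 and 76 bases before the start of the Hes5 gene model, 201 bases before that of Fabp7 and 244 bases before that of Tnc. The N-box CACNAG, bound by HES proteins, was found in 5 of the 9 genes (Pax6, Notch1, Fabp7, Slc1a3 and Hopx) and in 40.1% of all genes. The SOX motif ACAAAG was found in 4 of the 9 (Sox2, Pax6, Hes5 and Dll1) and in 18.6% of all genes. Both strands were searched, and a match is a run of letters, not a site shown to be bound.

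Total counts ranged from 16858007 to 31157700 per library with a median of 24218468. CPM here means counts after scaling to library size. Phf6 fell in the Phf6-/Y cortices by 1.86 on the log2 scale (172 ± 21.2 CPM, SD, n = 3, against 48.0 ± 5.83, n = 5) and in the Phf6lox/Y;Nes-creTg/+ neurons by 1.82 (247 ± 16.8, n = 3, against 70.6 ± 11.2, n = 4), and every library lay on the side its label gives. One cortex library, Phf6-/Y replicate 1 of litter 3, held 471 CPM summed over 8 marker genes of the diencephalon, against 40.8 to 64.8 CPM in the other cortices, so results that involve the cortex are also given without it where it changes a call. The summed level of 12 neuron marker genes was 5710 to 7906 CPM in the cortices and 11030 to 12200 CPM in the cultures. RNA of a whole tissue or culture was measured, so fewer cells of a kind and less RNA per cell cannot be told apart.

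Levels were compared between genes per length, as RPKM, which is CPM divided by the gene's length in kilobases. In Phf6+/Y cortex Fabp7 was the most abundant of the 10 at 516 ± 59.1 RPKM (SD, n = 3), followed by Sox2 at 77.1 ± 12.8 and Slc1a3 at 39.1 ± 4.99 RPKM. Hes5 (31.6), Pax6 (25.0), Notch1 (23.6), Dll1 (23.2), Tnc (18.7) and Hes1 (15.7 RPKM) formed a middle range in which each gene overlapped the next over the 3 libraries, and Hopx was lowest at 7.06 ± 1.91 RPKM. The order was the same in Phf6-/Y cortex. In control neurons Fabp7 again led at 152 ± 53.1 RPKM, but Slc1a3 (23.9) and Tnc (19.3) now stood with Sox2 (19.0 RPKM), ahead of Dll1 at 13.3, Pax6 at 9.37 and Hopx at 8.54 RPKM. Notch1 had dropped to 5.58 RPKM and the Notch targets were at the bottom, with Hes5 at 4.67 ± 1.27 and Hes1 at 1.49 ± 0.67 RPKM, whose libraries did not overlap.

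**Figure D1:**
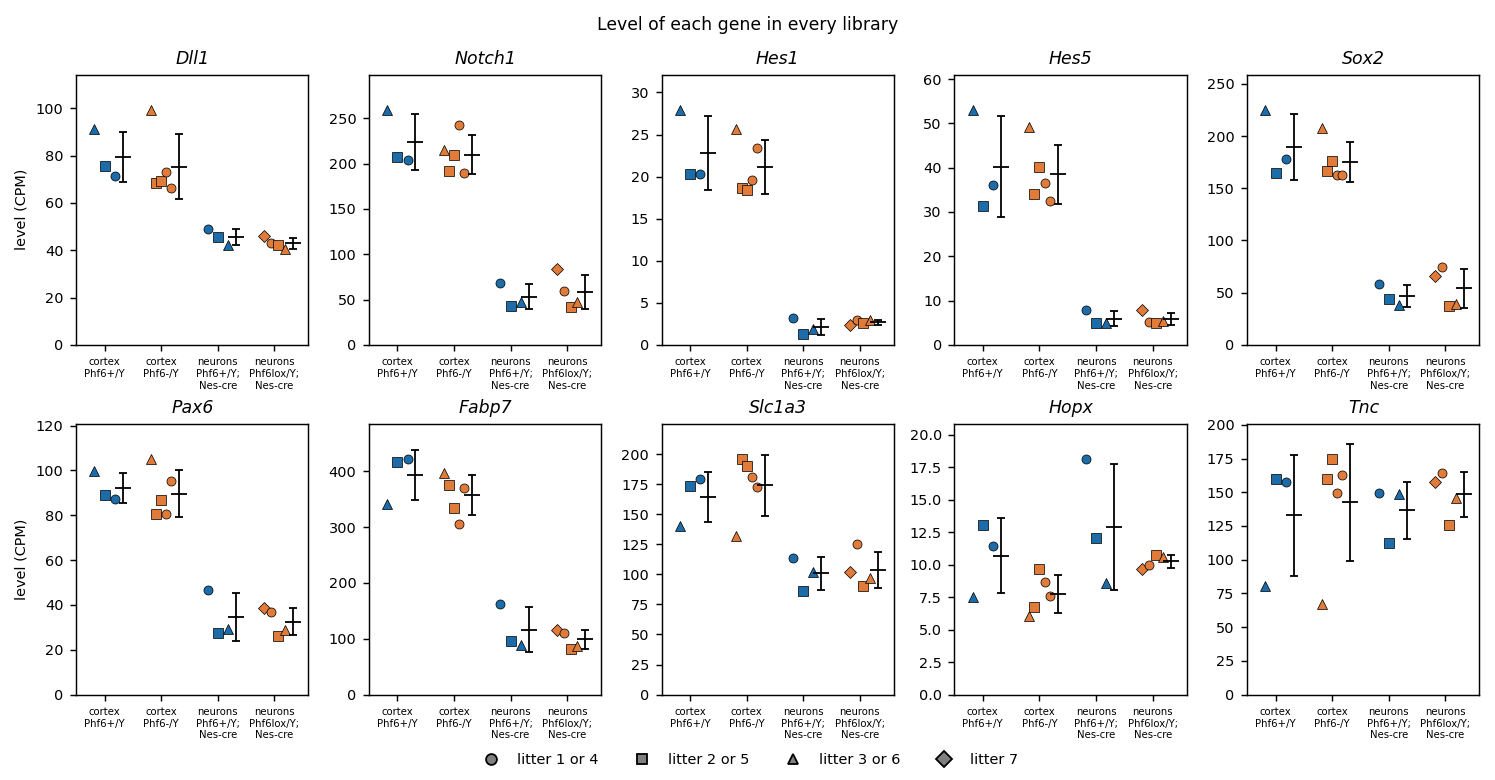
Level of each of the 10 genes in CPM (vertical axes, linear and from 0) in every library of the 4 groups. Points are libraries, with blue for Phf6 intact, orange for Phf6 deleted and the symbol for the litter, and bars give the mean and SD. Notch1, Hes1, Hes5, Sox2 and Fabp7 separate cortex from neurons without overlap, whereas Hopx and Tnc do not, and within each tissue the blue and orange points lie together.

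The first comparison set the cultured neurons against the cortex, within Phf6-intact and within Phf6-deleted samples, and asked how much of the radial glia and Notch programme the neuron cultures still hold. Of the 10 genes, 8 were lower in the neurons in the intact samples, by a log2 fold change between -0.71 for Slc1a3 and -3.38 for Hes1, while Hopx and Tnc did not pass the test. Of all 14320 genes tested, 26.4% were lower and 24.7% higher (edgeR's quasi-likelihood test, Benjamini-Hochberg FDR below 0.05). The median log2 fold change was -1.59 over the 10 genes and -0.03 over all genes. In the deleted samples these 8 were lower and Hopx was higher, where 31.1% of 14416 genes were lower and 28% higher, and the median over the 10 was -1.57. When library totals replaced the scaling factors, the split over all genes turned from 3541 higher and 3777 lower to 2459 and 5003 in intact samples and from 4041 and 4490 to 2640 and 5986 in deleted ones, with the median gene at -0.17 and -0.19, and the same 8 genes were lower. Developmental stage, dissociation, culture, the Nes-cre transgene and litter all changed with the tissue and cannot be told apart.

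Dll1 (Entrez gene 13388, chr17:15367354-15376872 of GRCm38, minus strand), the ligand, was at 91.2, 75.6 and 71.3 CPM in Phf6+/Y cortices and at 99.4, 68.6, 69.1, 73.3 and 66.5 CPM in Phf6-/Y cortices. Control neurons held 49.2, 45.5 and 42.4 CPM and deleted neurons 46.1, 43.3, 42.3 and 40.4 CPM. It was lower in every culture than in any cortex, yet by less than any member of its pathway among the 10, with a log2 fold change of -0.80 (95% interval -1.03 to -0.57, FDR = 4.69e-05 by edgeR's quasi-likelihood test) in intact and -0.81 in deleted samples.

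Notch1 (18128, chr2:26457903-26516663, minus strand), the receptor, was at 259, 208 and 204 CPM in Phf6+/Y and at 215, 192, 209, 243 and 190 CPM in Phf6-/Y cortices. In neurons it was at 68.6, 42.6 and 47.6 CPM with Phf6 intact and at 83.4, 59.9, 41.6 and 47.0 CPM with Phf6 deleted. The receptor was thus lower in all 7 cultures, with a log2 fold change of -2.08 (-2.50 to -1.65, FDR = 3.49e-05 by edgeR) in intact and -1.86 in deleted samples.

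Hes1 (15205, chr16:30064384-30067796, plus strand) and Hes5 (15208, chr4:154960923-154962371, plus strand), the Notch targets, showed the largest differences of the 10. Hes1 was at 27.9, 20.3 and 20.3 CPM in Phf6+/Y cortices and at 25.6, 18.6, 18.4, 19.6 and 23.4 CPM in Phf6-/Y cortices. In control neurons it was at 3.23, 1.34 and 1.93 CPM and in deleted neurons at 2.31, 2.98, 2.55 and 2.93 CPM, from 29 to 88 counts per library. The mean level was 10.5 times higher in the intact cortex than in the intact neurons, at a log2 fold change of -3.38 (-3.99 to -2.77, FDR = 2.53e-06 by edgeR), and -2.97 in the deleted ones. Hes5 was at 53.1, 31.4 and 36.1 CPM in Phf6+/Y and at 49.3, 34.0, 40.2, 36.6 and 32.6 CPM in Phf6-/Y cortices. The cultures held 7.81, 4.98 and 5.04 CPM with Phf6 intact and 7.98, 5.19, 4.84 and 5.48 CPM with Phf6 deleted. Its log2 fold change, -2.75 (-3.29 to -2.21, FDR = 1.06e-05 by edgeR) in intact samples, was nearly the same in deleted ones at -2.72. The exons of Hes5 share 433 bases (31.8%) with the opposite-strand transcript Gm20421, and those of Dll1 share 867 bases (20.5%) with A930024N18Rik. The strand setting of the counting is not given in the sources used here, so reads of these pairs cannot be told apart.

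Sox2 (20674, chr3:34650405-34652461, plus strand) was at 225, 165 and 178 CPM in Phf6+/Y and at 207, 167, 176, 162 and 163 CPM in Phf6-/Y cortices. It was at 58.7, 43.5 and 38.0 CPM in control neurons and at 66.0, 74.2, 37.7 and 38.9 CPM in deleted neurons. The lowest cortex held more than 2-fold the level of the highest culture, and the log2 fold change was -2.02 (-2.42 to -1.63, FDR = 1.84e-05 by edgeR) in intact and -1.69 in deleted samples. Pax6 (18508, chr2:105668900-105697364, plus strand) was at 99.7, 89.2 and 87.2 CPM in Phf6+/Y cortices and at 105, 80.6, 87.0, 80.7 and 95.1 CPM in Phf6-/Y cortices. Neurons held 46.7, 27.3 and 29.4 CPM when intact and 38.5, 36.9, 26.2 and 28.8 CPM when deleted. Its log2 fold change was -1.42 (-1.84 to -0.99, FDR = 0.000242 by edgeR) in intact and -1.46 in deleted samples, a smaller difference than that of Sox2 in both.

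Fabp7 (12140, chr10:57784881-57788450, plus strand) was at 341, 418 and 421 CPM in Phf6+/Y and at 397, 376, 335, 306 and 371 CPM in Phf6-/Y cortices. In neurons it was at 163, 96.2 and 89.3 CPM with Phf6 intact and at 116, 111, 81.3 and 87.8 CPM with Phf6 deleted. The lipid carrier fell by 1.76 on the log2 scale (-2.40 to -1.13, FDR = 0.00213 by edgeR) in intact and by 1.85 in deleted neurons. Slc1a3 (20512, chr15:8634124-8710764, minus strand), the glutamate transporter, was at 140.2, 174 and 179 CPM in Phf6+/Y and at 132, 196, 189.7, 181 and 172 CPM in Phf6-/Y cortices. It was at 113, 86.5 and 102 CPM in control and at 102, 125, 90.0 and 97.3 CPM in deleted neurons. The groups did not overlap here either, but the log2 fold change was only -0.71 (-0.96 to -0.45, FDR = 0.000305 by edgeR) in intact and -0.75 in deleted samples.

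Hopx (74318, chr5:77086988-77115121, minus strand) and Tnc (21923, chr4:63959785-64047015, minus strand) were not lower in the neurons. Hopx was at 7.48, 13.1 and 11.45 CPM in Phf6+/Y cortices and at 6.01, 6.74, 9.66, 8.64 and 7.57 CPM in Phf6-/Y cortices. Control neurons held 18.1, 12.04 and 8.55 CPM and deleted neurons 9.66, 9.98, 10.8 and 10.6 CPM. In intact samples its log2 fold change was 0.28 (-0.36 to 0.91, FDR = 0.447 by edgeR), and in deleted samples it rose by 0.40 (0.08 to 0.72, FDR = 0.0336), a call that was lost in 9 of 16 alternative analyses, without Phf6-/Y replicate 1 among them (0.32, FDR = 0.0671), with FDR up to 0.165. Tnc was at 80.8, 160 and 158 CPM in Phf6+/Y cortices and at 66.9, 159.5, 174, 149 and 163 CPM in Phf6-/Y cortices. In neurons it was at 149, 112 and 149 CPM with Phf6 intact and at 158, 164, 126 and 146 CPM with Phf6 deleted. The neurons lay within the range of the cortices, whose low end was litter 3 alone, with a log2 fold change of 0.04 (-0.71 to 0.79, FDR = 0.929 by edgeR) in intact and 0.05 in deleted samples, and -0.10 in both when library totals replaced the scaling factors. The exons of Hopx share 412 bases (27.2%) with the opposite-strand transcript Hopxos, which carries the same limit as above.

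**Figure D2:**
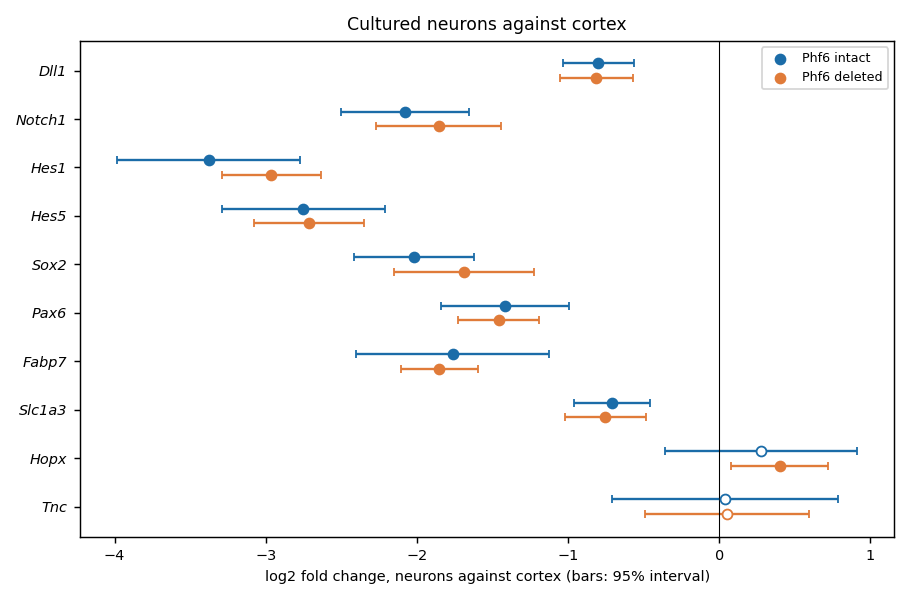
Log2 fold change of each gene in cultured neurons against cortex (horizontal axis), with Phf6 intact in blue and Phf6 deleted in orange. Bars are 95% intervals and filled points have an FDR below 0.05. Differences run from about -3 for Hes1 and Hes5 through about -2 for Notch1 and Sox2 to values between -1 and 0 for Dll1 and Slc1a3, and both intervals of Tnc span 0.

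Their levels relative to each other also differed between the tissues. Divided by the Sox2 level of the same library, as a description of CPM ratios over 8 cortices and 7 cultures, Hes1 ranged from 0.104 to 0.144 in cortex and from 0.0308 to 0.0754 in neurons, and Hes5 from 0.191 to 0.238 and from 0.0700 to 0.141. The Notch targets were thus low in the cultures even relative to Sox2, with no overlap. The ligand went the other way, with Dll1 at 0.392 to 0.479 per Sox2 in cortex and at 0.583 to 1.12 in neurons, as did Slc1a3 (0.623 to 1.17 and 1.55 to 2.69) and Tnc (0.323 to 1.00 and 2.21 to 3.91). Ratios of Pax6, Notch1 and Fabp7 to Sox2 overlapped between the tissues.

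The pathway as a whole was read from lists fixed by name, which include Dll1, Notch1, Hes1 and Hes5. In intact samples 6 of 7 ligand genes were lower in the neurons, where 26.4% of all genes were. Dll3 was lower by 1.96 on the log2 scale (25.5 ± 3.93 to 6.54 ± 2.46 CPM, mean ± SD, n = 3 each), the vascular ligand Dll4 by 1.92, Jag1 by 1.24 and the non-canonical ligand Dlk1 by 4.56, whereas Jag2 was higher by 0.43 (FDR = 0.0106 by edgeR). All 4 receptors were lower, with Notch3 at 74.4 ± 14.7 CPM in cortex and 10.8 ± 4.03 CPM in neurons (log2 fold change -2.78), Notch4 at -2.56 and Notch2 at -1.72. Of 10 effector genes, 9 were lower, among them Hey2 (-2.68), the feedback inhibitor Nrarp (-1.75) and Hey1 (-1.67). Rbpj, the DNA-binding partner itself, was at 92.7 ± 8.33 CPM in cortex and 83.9 ± 4.99 CPM in neurons and did not pass the test (log2 fold change -0.15, FDR = 0.208). Heyl had 134 to 515 counts in every cortex and 0 to 3 in every culture.

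Of the 19 regulators of the pathway 7 were lower and 6 higher, a split near that of all genes (26.4% lower and 24.7% higher). The fringe glycosyltransferase genes Lfng (log2 fold change -2.61) and Mfng (-2.27), the ubiquitin ligase gene Neurl1a (-2.10) and Numb (-0.83), whose product inhibits NOTCH, were lower. Dtx4, a ubiquitin ligase gene of the Deltex family, rose by 1.46 from 80.5 ± 6.85 to 223 ± 34.2 CPM. Over the 36 Notch genes other than the 4 described above, 22 were lower and 7 higher, with a median log2 fold change of -0.63, in intact samples, and the same counts were found in deleted samples with a median of -0.68. The 9 endothelial and mural marker genes, which were all lower, summed to 195 to 400 CPM in the cortices and 9.83 to 15.1 CPM in the cultures, where Cldn5 was at 0 in all 3 control cultures. Notch3, Notch4, Dll4 and Heyl are also genes of blood vessels, and the part of vessel cells in their difference was not tested.

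Of the 25 radial glia genes on the list, 24 were lower in intact neurons, where 26.4% of all genes were. The exception was Lhx2 (log2 fold change -0.04, FDR = 0.745 by edgeR). The list includes genes named at the outset, so this count is not independent of theirs. The largest differences among those not described above were those of Sox21 (-2.29), Sox1 (-2.13), Id4 (-2.11) and the intermediate filament gene Nes (-2.10, from 480.5 ± 12.2 to 112 ± 13.4 CPM), and Vim (-1.91), Gli3 (-1.87), Sox9 (-1.68) and Emx2 (-0.72) were lower too. Of the outer radial glia list, 7 of 9 genes were tested. Moxd1 (-1.91), Acsbg1 (-1.10) and Il6st (-0.40) were lower, Lifr, a receptor subunit of leukaemia inhibitory factor, was higher (1.09), and Ptprz1, a receptor phosphatase, stood with Hopx and Tnc at 401 ± 45.5 and 468 ± 92.7 CPM (log2 fold change 0.22, FDR = 0.237). Leaving out the genes named at the outset, 23 genes of the radial glia and outer radial glia lists were tested. Among them 20 were lower and 1 was higher, against 26.4% and 24.7% of all genes. Of the 12 intermediate progenitor genes 9 were lower and 2 higher, against 26.4% and 24.7% of all genes. Eomes (-1.48) and Neurog2 (-1.53) were lower, with log2 fold changes near that of Pax6.

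**Figure D3:**
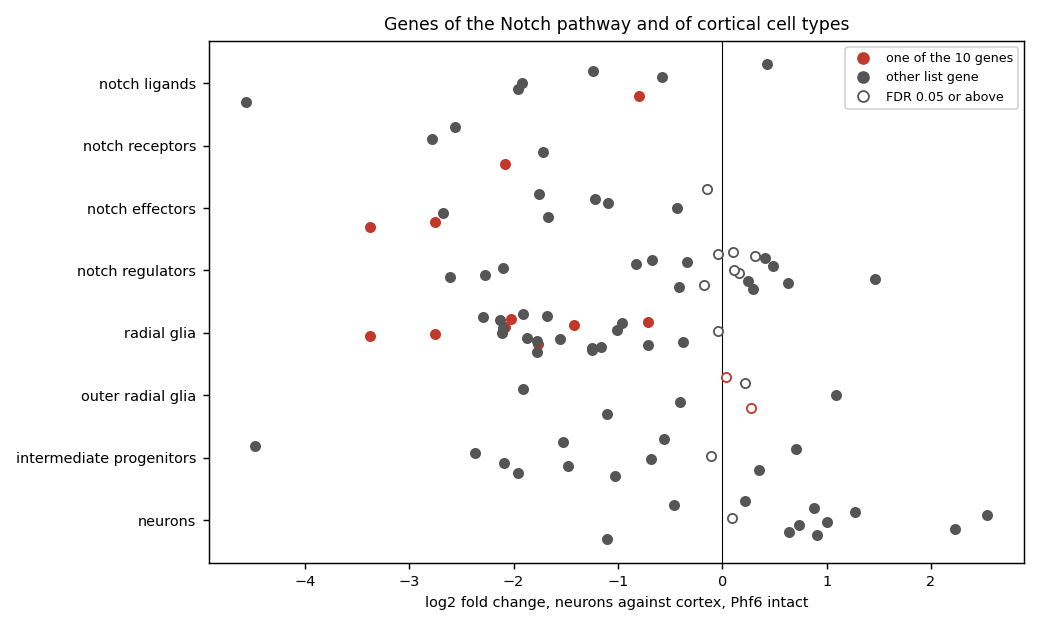
Log2 fold change in control neurons against Phf6+/Y cortex (horizontal axis) of every tested gene of the Notch, progenitor and neuron lists (rows), except Heyl, whose counts in neurons are at or near 0. Red points are the 10 genes, grey points the others, and open points have an FDR of 0.05 or above. The ligand, receptor, effector and radial glia rows lie almost wholly left of 0, the regulators lie on both sides, and the neuron genes lie mostly to the right.

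Likeness of pattern was measured as the root-mean-square difference of log2 CPM, each gene centred on its own mean, over the 15 libraries and 13732 genes. The 5 genes nearest to Sox2 were Mcm2 (0.111), Cdca3 (0.134), Mcm5 (0.139), Kif14 (0.144) and Il17rd (0.146). Mcm2 and Mcm5 encode subunits of the replicative helicase and Kif14 a kinesin of dividing cells. Among the 10 genes, Notch1 came closest to Sox2 as the 20th nearest, and Fabp7 and Pax6 followed as the 119th and 167th. Nearest to Hes5 were Notch3 (0.169), Rhbdl3 (0.198), Esrrg (0.223), Ccnd1 (0.232) and Lfng (0.235), so a receptor and a fringe gene of the same pathway were among its 5 closest, and Hes1 was the 57th. The measure takes in differences between the tissues as well as within them.

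The second question was whether loss of Phf6 changed these genes. None of the 10 passed the test in the cortex, where 57 of 14750 genes (0.386%) did (edgeR, with the litters fitted, FDR below 0.05), and 1 of the 10, Hopx, had an unadjusted p below 0.05, against 10.5% of all genes. With limma and with DESeq2 the count was 0 as well. None passed in the neurons, where 38 of 13909 genes (0.273%) did, with 1 unadjusted, Fabp7, against 10.3% of all genes, and 0 by limma and DESeq2. The median log2 fold change of the 10 was -0.06 in the cortex and -0.10 in the neurons, against -0.002 and 0.001 over all genes.

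In the cortex 9 of the 10 differences had intervals that span 0. Sox2 differed by -0.07 on the log2 scale (95% interval -0.20 to 0.07), Pax6 by -0.02 (-0.17 to 0.14), Slc1a3 by 0.02 (-0.12 to 0.16) and Dll1 by -0.03 (-0.19 to 0.12). The intervals of Tnc (-0.22 to 0.10), Notch1 (-0.26 to 0.13), Hes5 (-0.18 to 0.23), Hes1 (-0.28 to 0.16) and Fabp7 (-0.37 to 0.07) were a little wider. For none of these 9 did the interval reach a log2 difference of 0.5 in either direction.

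Hopx was lower in the Phf6-/Y cortex, at 7.72 ± 1.46 CPM (SD, n = 5) against 10.7 ± 2.88 CPM (n = 3), with a log2 fold change of -0.52 (-0.86 to -0.18) and an unadjusted p = 0.0052, and did not pass the correction over all genes (FDR = 0.229 by edgeR). Each of the 5 Phf6-/Y cortices was below the control of its own litter, by 0.31 to 0.95 on the log2 scale, but only 2 of 5 were below every control, since the control of litter 3 was itself at 7.48 CPM. The controls of litters 1 and 2 were each set against 2 Phf6-/Y cortices, so these 5 differences come from 3 litters and are not independent. Across the alternative analyses the FDR stayed between 0.168 and 0.697. The choroid plexus markers summed to 485 and 354 CPM in the 2 controls with the higher Hopx level and to 2.25 CPM in the third. In Phf6-/Y replicates 1 to 5 they summed to 73.7, 21.1, 3.84, 344 and 2.97 CPM. Hopx in these replicates was at 6.01, 6.74, 9.66, 8.64 and 7.57 CPM, in the same order. The part of the choroid plexus in the Hopx difference was not tested.

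In the neurons, where the 3 litters with both genotypes carry the comparison, Fabp7 had the largest difference relative to its error. It was at 163, 96.2 and 89.3 CPM in the controls of litters 4, 5 and 6 and at 111, 81.3 and 87.8 CPM in their Phf6lox/Y;Nes-creTg/+ litter mates, lower in 3 of 3 pairs but by only 0.03 on the log2 scale in litter 6. The log2 fold change was -0.28 (-0.46 to -0.10, unadjusted p = 0.00513, FDR = 0.223 by edgeR). It passed the test when litter 6 was left out (-0.41, FDR = 0.000411), when either of that litter's libraries was (FDR = 3.63e-05 without control replicate 3 and FDR = 0.00128 without Phf6lox/Y;Nes-creTg/+ replicate 4), and with no low-count filter (FDR = 0.0101). Calls over all genes also rose in such settings, from 38 to 494 without control replicate 3. The log2 fold change of Fabp7 was -0.13 without litter 4 (FDR = 0.742).

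Pax6 (-0.15), Dll1 (-0.12) and Notch1 (-0.09) were also lower in 3 of 3 litter pairs of neurons without passing the test, with intervals of -0.36 to 0.05, -0.29 to 0.05 and -0.25 to 0.08. Sox2 was higher in 2 of 3 pairs (0.07, -0.14 to 0.27), as were Slc1a3 (0.04, -0.10 to 0.18) and Tnc (0.09, -0.04 to 0.22). The low levels of the Notch targets left wide intervals, with Hes5 at -0.19 (-0.63 to 0.25) and Hes1 at 0.43 (-0.25 to 1.10). Hopx stood at -0.26 (-0.67 to 0.14).

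**Figure D4:**
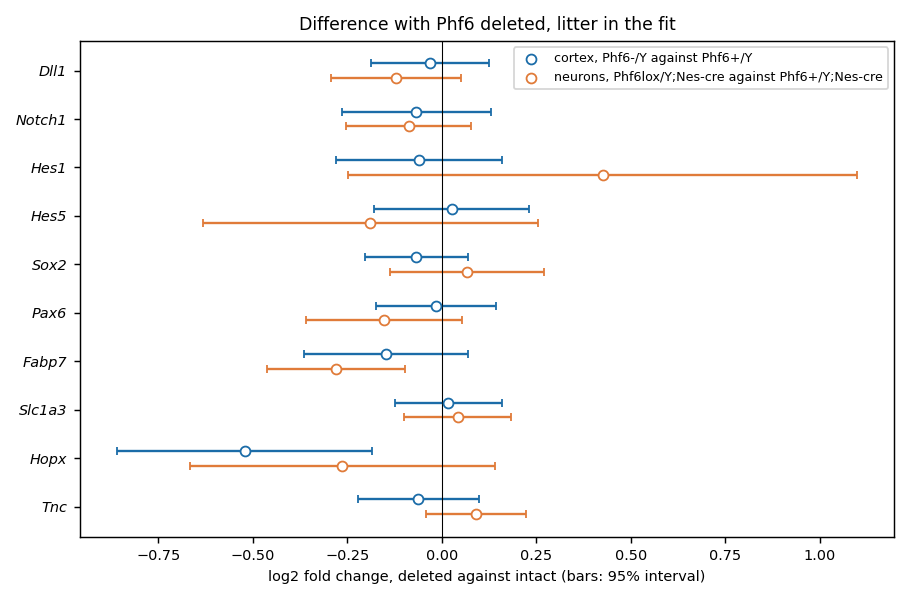
Log2 fold change of each gene with Phf6 deleted against Phf6 intact (horizontal axis), in the cortex in blue and in the neurons in orange, with litter as a term. Bars are 95% intervals and open points have an FDR of 0.05 or above, which holds for all 20 values. Only the intervals of Hopx in the cortex and of Fabp7 in the neurons lie clear of 0.

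The next test asked whether the effect of the deletion differed between neurons and cortex, as an interaction over all 15 libraries. None of the 10 genes passed, against 2 of 15001 genes (0.0133%), and none had an unadjusted p below 0.05 with edgeR, while limma and DESeq2 gave 0 calls among the 10. The largest difference of effects was that of Hes1 at 0.44 (-0.06 to 0.95, FDR = 0.954 by edgeR).

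The wider pathway was read from the same lists. Of the other 36 Notch genes, 0 passed in the cortex and 0 of 35 tested in the neurons by edgeR, with 6 unadjusted in each, where 10.5% and 10.3% of all genes were, and 0 by limma and DESeq2. In the cortex 1, higher, passed without Phf6-/Y replicate 5, without litter 1 and with a replicate block in place of litter. Of the other 25 radial glia and outer radial glia genes, 20 had a negative and 5 a positive log2 fold change in the cortex, with a median of -0.17, and 11 of 25 had an unadjusted p below 0.05, against 10.5% of all genes, among them Sox9 (-0.17), Lhx2 (-0.25) and Vim (-0.23, 549 ± 3.78 against 464 ± 51.0 CPM, FDR = 0.233). Dbi, an acyl-CoA-binding protein gene, passed, at 171 ± 11.4 CPM in Phf6+/Y and 141 ± 12.4 CPM in Phf6-/Y cortices (log2 fold change -0.32, FDR = 0.0498 by edgeR). The number of the list's genes that passed, all lower, was 1 with limma, 3 with DESeq2, and 0 with RLE size factors, with no litter term and with a replicate block. DESeq2 also called more of all genes, as given further below. The number that passed was 0 in 7 of the 8 analyses that each left out 1 library, the exception being Phf6-/Y replicate 5. The negative values of the list numbered 17 to 19 of 25 in those 8, with 18 without Phf6-/Y replicate 1. In the neurons 19 of 22 were negative with a median of -0.09 and none passed (5 unadjusted, 0 by limma and DESeq2), Nes standing at -0.29 (FDR = 0.0893) and Gli3 at -0.40 (FDR = 0.158). Without control replicate 3 the number that passed was 3, without Phf6lox/Y;Nes-creTg/+ replicate 4 it was 2, without litter 6 or with library totals it was 2, and with no low-count filter it was 4, all lower. Calls over all genes rose too, from 38 to 494 without control replicate 3. They also rose with library totals and with no filter, as given further below.

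More of these genes differed between litters than between genotypes. In the cortex 5 of the 10 differed between litters 1, 2 and 3 in an F test of the litter terms (edgeR, FDR below 0.05), against 251 of 14750 genes (1.7%), and in the neurons 6 of the 10 differed between litters 4 to 7, against 697 of 13909 genes (5.01%). The span from the lowest to the highest litter had a median of 0.44 on the log2 scale over the 10 genes in cortex and 0.62 in neurons, against 0.22 and 0.32 over all genes.

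In the cortex it was litter 3 that stood apart. Tnc had the smallest p of all genes in this test, at 66.9 and 80.8 CPM in the 2 cortices of litter 3 and at 149 to 174 CPM in the 6 others, a span of 1.16 (FDR = 0.000431 by edgeR). Slc1a3 was also lowest in litter 3, at 132 and 140.2 CPM against 172 to 196 CPM (span 0.44, FDR = 0.0327). The stem cell and Notch genes went the other way, with Sox2 at 207 and 225 CPM against 162 to 178 CPM (span 0.36, FDR = 0.0449), Hes5 at 49.3 and 53.1 CPM against 31.4 to 40.2 CPM (span 0.55, FDR = 0.0367) and Dll1 at 91.2 and 99.4 CPM against 66.5 to 75.6 CPM (span 0.44, FDR = 0.0344). In each of these 5 genes the control and the Phf6-/Y cortex of litter 3 lay together, outside the range of the other 6. Hes1 (25.6 and 27.9 CPM) and Pax6 (99.7 and 105 CPM) were likewise highest in litter 3 but did not pass (FDR = 0.121 and 0.266), and Fabp7, Notch1 and Hopx did not pass either.

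Of the other genes on the Notch and radial glia lists, 3 of 36 and 2 of 25 passed in the cortex, against 1.7% of all genes. These 5 had the same litter highest. They were Dll3 (30.0 to 33.6 CPM in litter 3 and 15.8 to 23.6 CPM in the others), Notch3 (91.1 to 95.4 and 59.9 to 78.2 CPM), Nrarp (89.4 to 91.9 and 61.9 to 70.7 CPM), Id4 (195 to 206 and 106 to 147 CPM) and Fgfr3 (124 to 145 and 94.2 to 117 CPM). The ganglionic eminence markers were also highest there, at 933 and 960 CPM against 693 to 844 CPM, and 1 of the 2 libraries is the one with the diencephalon markers. Their part in the differences was not tested. Without that library litter 3 held only 1 library. The spans were then 1.00 for Tnc, 0.41 for Sox2, 0.66 for Hes5, 0.33 for Dll1 and 0.36 for Slc1a3. Of the calls of these genes only that of Tnc was kept. The number of these genes called was also 1 without Phf6-/Y replicate 2, Phf6+/Y replicate 3 or litter 2, 2 without Phf6-/Y replicate 3, and 3 without Phf6+/Y replicate 1 or 2. Without litter 3 itself no gene passed, and the spans of Tnc and Sox2 between litters 1 and 2 were 0.07 and 0.01.

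In the neurons litters 4 and 7 were high and litters 5 and 6 low. Notch1 was at 59.9 and 68.6 CPM in litter 4 and at 83.4 CPM in litter 7, against 41.6 to 47.6 CPM in litters 5 and 6 (span 1.03, FDR = 0.000435 by edgeR). Sox2 was at 58.7 and 74.2 CPM in litter 4 and 66.0 CPM in litter 7, against 37.7 to 43.5 CPM (span 0.78, FDR = 0.00173). Fabp7 (span 0.61, FDR = 0.0035) and Pax6 (0.64, FDR = 0.0106) had the same order, with every library of litters 4 and 7 above every library of litters 5 and 6. Tnc (0.40, FDR = 0.023) was lowest in litter 5, at 112 and 126 CPM, and Slc1a3 (0.43, FDR = 0.0288) was highest in litter 4, at 113 and 125 CPM. Dll1, Hes1, Hes5 and Hopx did not pass, although Hes5 had a span of 0.80, which was 0.39 without litter 7.

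The progenitor lists moved with the same litters, in a test that 5.01% of all genes passed. Of the other 25 radial glia and outer radial glia genes, 22 were tested and 12 passed. Sox1 was at 47.2 to 51.2 CPM in litter 4 and 49.9 CPM in litter 7, against 22.9 to 34.1 CPM in litters 5 and 6. Of the 12 intermediate progenitor genes 6 passed. Eomes, from that list, was at 95.8 to 125 CPM in litter 4 and 109.8 CPM in litter 7, against 61.8 to 76.3 CPM in litters 5 and 6. The ganglionic eminence markers, of which 8 of 10 passed, summed to 281 to 296 CPM in litters 4 and 7 and to 184 to 255 CPM in litters 5 and 6. Litter 7 consisted of 1 library with Phf6 deleted, so its litter and that library cannot be told apart. Without it 6 of the 10 still passed, with the span of Notch1 at 0.60. Leaving out litter 4 removed the calls of Pax6 and Slc1a3, and leaving out litter 5 those of Slc1a3 and Tnc.

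**Figure D5:**
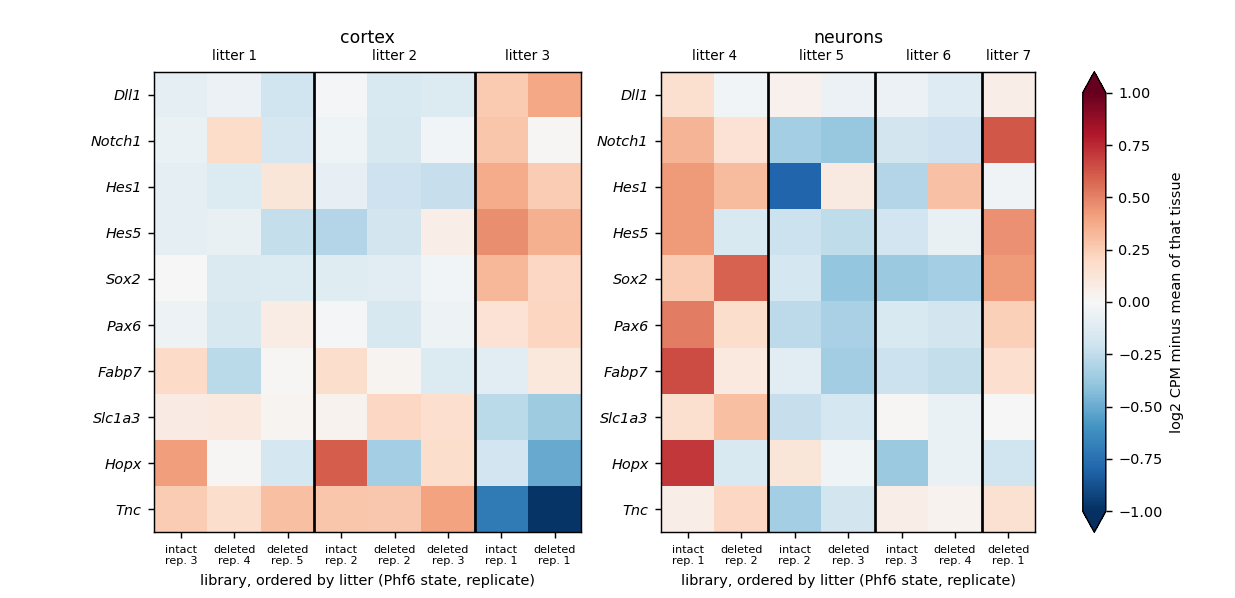
Log2 CPM of each gene (rows) in every library (columns, ordered by litter) minus the gene's mean over that tissue, on a colour scale from -1 (blue) to 1 (red). In cortex, litter 3 is red for Dll1, Hes1, Hes5, Sox2 and Pax6 and blue for Slc1a3 and Tnc, with 1 control and 1 Phf6-/Y library alike. In neurons, Notch1, Sox2, Pax6 and Fabp7 are red in litters 4 and 7 and blue in litters 5 and 6.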

How the data were processed

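Gene counts of 15 libraries were used as deposited. The authors sequenced polyA RNA with a stranded kit, aligned the reads to mm10 with Rsubread and obtained counts with featureCounts and its inbuilt RefSeq annotation. The strand setting of that counting is not given in the sources used here. The table held 27179 rows, of which 1029 without a gene identifier (0.349% to 0.605% of counts) were left out. Of the 26150 Entrez identifiers, 875 matched no current symbol, and 835 pseudogenes, 35 rRNA genes and 1273 predicted genes were also removed, which left 23132. The counts of each library equalled those in its own file.

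Tests used edgeR 4.0.16 in R 4.3.3, with filterByExpr, TMM scaling (factors 0.927 to 1.06), robust quasi-likelihood fits and Benjamini-Hochberg adjustment over all genes tested, at an FDR below 0.05. Litter was a term in the fits within a tissue, as the labels give it. Cortex and neurons were compared within Phf6-intact and within Phf6-deleted samples, with no litter term because no litter is in both. Log2 CPM values carry a prior count of 2. Alternatives were limma 3.58.1, DESeq2 1.42.0, other scaling, no low-count filter, no litter term, a replicate block and leaving out libraries or litters. The routines were tested on simulated data, where 39% to 66% of 1.5-fold and 66% to 82% of 2-fold changes were recovered. False calls were 17 of 155 for genotype in cortex and 15 of 157 in neurons. They were 13 of 125 for litter in cortex, 22 of 165 in neurons and 3 of 113 for the interaction. For neurons against cortex they were 14 of 132 in intact and 12 of 144 in deleted samples. Except in the interaction, these are larger shares than the FDR threshold of 0.05.

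The 10 genes and 18 gene lists were chosen with earlier results of these data known. Named were the 10 genes, Phf6, 18 partner genes set by name (Notch2, Notch3, Dll3, Jag1, Rbpj, Hey1, Nrarp, Lfng, Numb, Nes, Vim, Sox9, Gli3, Emx2, Lhx2, Ptprz1, Eomes and Neurog2), up to 4 genes a list with the largest called change at a mean of at least 1 CPM, and the 5 genes nearest to Sox2 and to Hes5. Jag2, Cldn5, Gfap, Aldh1l1, Sparcl1 and Aqp4 were named after their values were seen.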

Additional observations from a re-analysis of the deposited data

Results flagged for a closer look

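In the 5 Phf6-/Y cortices, replicate 1 (litter 3) lay far from the other 4 for 2 of the 10 genes. Dll1 was highest there at 99.4 CPM, with a gap to the nearest of the others of 0.759 of the group's range, and Tnc was lowest there at 66.9 CPM, with a gap of 0.837, where Dixon's critical value for 5 samples is 0.710. The pairs of gene and group tested numbered 20, and chance passes about 1 in 20 groups. This library is also the one with 471 CPM of diencephalon markers. The Phf6+/Y cortex of the same litter, with 64.8 CPM of these markers, stood on the same side of the other cortices for both genes, at 91.2 CPM of Dll1 and 80.8 CPM of Tnc.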

How the results depend on the processing

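No value of the 10 genes that passed a test changed direction under an alternative. In the cortex the number of genes called for genotype, 57, was 199 with DESeq2, 114 with no low-count filter and 1 with no litter term, and 2 to 81 when a library or litter was left out, and 0 of the 10 genes were called throughout. In the neurons it was 38 and became 62 with DESeq2, 73 with library totals, 297 with no filter and 1 with no litter term, and 12 to 494 with a library or litter left out. Of the 10 genes, 1 (Fabp7) was called with no filter, and 0 to 1 with libraries or litters left out. The litter test in the cortex called 251 genes, 830 with DESeq2 and 482 with no filter, and 0 to 586 with libraries or litters left out, with 0 to 5 of the 10 genes. In the neurons it called 697, 1961 with no filter and 458 to 2398 with libraries or litters left out, with 4 to 6 of the 10. The interaction called 2 genes, 12 with DESeq2, 5 with no filter, 0 with no litter term and 0 to 4 with libraries left out. The cause of these changes was not tested. Leaving out each litter in the litter tests was chosen after seeing the data.

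Among same-numbered control and deleted libraries, only those of cortex replicates 1 and 2 shared a litter. Deviations of same-numbered libraries correlated at 0.256, 0.0677 and -0.142 in cortex and at 0.255, -0.169 and 0.155 in neurons. Those of litter mates correlated at -0.080 to 0.363 in cortex and at 0.117 to 0.303 in neurons. The ranges overlap, so these correlations do not tell the pairings apart. Litter was used in the main fits because the labels give it for every library. With the replicate block in place of litter, 75 genes were called for genotype in the cortex and 5 in the neurons. With the replicate block between tissues, 7522 genes in intact and 7719 in deleted samples were called, against 7318 and 8531, with 8 of the 10 genes in each, Hopx being lost in deleted samples (FDR = 0.0538 by edgeR). Low counts limit Hes1 in neurons, with 29 to 88 counts a library.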

Other observations

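Gfap, the intermediate filament gene of astrocytes, was at 0.168 to 1.57 CPM in the 8 cortices and at 13.4 to 19.99 CPM in the 7 cultures, with no overlap. It rose by 3.96 on the log2 scale in intact and by 4.63 in deleted samples (FDR = 0.00022 and 9.42e-08 by edgeR). It was named after its values were seen. Of the 9 astrocyte genes on the list 6 were tested in intact samples, and Gfap was the only one called higher, while Aldh1l1, a folate enzyme gene of astrocytes and radial glia, was lower by 2.55 and Sparcl1, of the matrix, by 0.69. Aqp4, the water channel gene, was at 0.24 without passing the test (FDR = 0.702).

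Of 7 microglia genes 4 were lower and 0 higher, and of 6 oligodendrocyte precursor genes 4 were lower and 1 higher, in intact samples, where 26.4% of all genes were lower and 24.7% higher.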
